A study of Mus musculus with 36 samples.

Results

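Iron uptake, storage, export and regulation were followed through 9 genes, Tfrc, Tfr2, Trf, Slc11a2, Fth1, Slc40a1, Hamp, Ireb2 and Aco1, in whole brain and liver of sleep-deprived and undisturbed mice. Every probe set whose platform symbol is one of these 9 genes was taken, which gave 23 of the 45101 probe sets on the array. Of the 23, 3 are control probe sets for Tfrc, and the other 20 entered the tests. One of the 20, 1425546_a_at, is annotated to both Trf and Srprb and is named by both genes throughout. In each tissue and strain the sleep-deprived mice were kept awake for 6 h from light onset, and their controls stayed in the home cage, both being killed at Zeitgeber time (ZT) 6. The mice were inbred males of AKR/J, DBA/2J or C57BL/6J, aged 12 to 13 weeks, and the labels name no engineered allele. The 2 tissues, 3 strains and 2 conditions made 12 groups of 3 arrays, and each array held a pool of RNA from 3 mice. The spread between arrays is therefore that between pools and not between single mice, and with 3 arrays a group their number limits the precision.

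Iron travels in plasma bound to transferrin, the product of Trf. The transferrin receptor made by Tfrc carries it into cells, also across the endothelium of the brain's vessels, and Slc11a2 (DMT1) moves the released iron out of the endosome. Ferritin, whose heavy chain is made by Fth1, stores iron, and ferroportin, made by Slc40a1, is the known exporter of iron from mammalian cells. Hepcidin, the liver hormone made by Hamp, binds ferroportin and lowers export, and Tfr2 helps hepatocytes sense transferrin-bound iron. Aco1 and Ireb2 make the iron regulatory proteins, which bind hairpins called iron-responsive elements. When iron is scarce they stabilise the Tfrc transcript and block translation of the transcripts of Fth1 and Slc40a1, so that an array, which measures transcript amount, does not see that second form of control.

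The promoters of Tfrc and Hamp are shown because Tfrc moved with sleep loss in brain and Hamp encodes the hormone set against ferroportin in liver. They come from RefSeq (GRCm38.p6), whose promoter table held 6 of the 9 genes. Each is a window of 300 bases, 250 before to 50 after an annotated start, written 5′ to 3′ on the gene's own strand. The Tfrc window lies at chr16:32608872-32609171 on the plus strand and the Hamp window at chr7:30943980-30944279 on the minus strand. A second annotated Tfrc start has a window at chr16:32608646-32608945 that overlaps the one shown and is not printed. Capitals mark matches to 5 motifs that were searched on both strands.
Tfrc: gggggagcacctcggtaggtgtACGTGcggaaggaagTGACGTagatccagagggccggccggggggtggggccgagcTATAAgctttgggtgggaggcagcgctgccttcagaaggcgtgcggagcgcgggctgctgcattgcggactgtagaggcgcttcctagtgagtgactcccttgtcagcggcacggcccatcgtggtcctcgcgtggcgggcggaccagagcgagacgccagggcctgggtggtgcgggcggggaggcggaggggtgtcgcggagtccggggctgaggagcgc
Hamp: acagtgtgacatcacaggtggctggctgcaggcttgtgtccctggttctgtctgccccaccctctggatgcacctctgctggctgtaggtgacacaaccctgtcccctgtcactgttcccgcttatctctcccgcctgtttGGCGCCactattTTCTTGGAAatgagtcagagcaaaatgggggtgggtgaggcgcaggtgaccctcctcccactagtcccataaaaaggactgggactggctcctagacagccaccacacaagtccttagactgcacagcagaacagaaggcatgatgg
The Tfrc window held ACGTG, the core of the hypoxia response element, at bases -228 to -224 from the start. It also held TGACGT, which resembles a cyclic AMP response element, at -213 to -208, and TATAA at -172 to -168. From the second Tfrc start the same ACGTG lies at -2 to 3 and the same TGACGT at 14 to 19, with a GGCGCC at -89 to -84 and no TATAA in that window. The Hamp window held GGCGCC, the core of the bone morphogenetic protein response element known in this promoter, at -109 to -104. At -97 to -89 it held TTCTTGGAA, a match to the STAT pattern TTCNNNGAA. No match overlapped another. Of all 32851 windows of this length in the table, 19.6% held ACGTG, 7.51% TGACGT, 24.9% TATAA, 11.9% GGCGCC and 8.30% TTCNNNGAA. A match is a run of letters and not a shown binding site.

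Values are log2 expression after RMA, and their medians differ between tissues as after separate normalisation, so levels are described within a tissue. The tissue labels matched their markers, with the albumin gene Alb at 14.58 to 14.71 in liver and 3.37 to 4.46 in brain. Of 18 brain arrays, C57BL/6J sleep-deprived array 1, AKR/J sleep-deprived array 3 and DBA/2J sleep-deprived array 2 held values less widely spread than the rest (SD of 1.90, 1.96 and 1.93 on the log2 scale). C57BL/6J control array 2 and DBA/2J control array 3 had the largest beta-actin 3′ minus 5′ differences, which grow as RNA degrades, at 1.13 and 0.98 (log2). The other brain arrays lay between 0.58 and 0.89, and in liver DBA/2J control array 1 stood at 2.16. These 6 arrays, 5 of brain and 1 of liver, are termed doubted below. Control arrays 2 and 3 of AKR/J, in either tissue, carry both ZT 0 and ZT 6 in their labels and were kept as ZT 6 controls.

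In brain, Tfrc fell after sleep loss in each of the 3 strains. On its brightest probe set, 1452661_at, the C57BL/6J arrays stood at 8.41, 8.61 and 8.78 on the log2 scale after sleep deprivation, against 9.18, 9.14 and 9.22 in controls. In AKR/J they stood at 8.32, 8.39 and 8.48 after sleep deprivation, against 9.19, 9.28 and 9.24 in controls. In DBA/2J they stood at 8.86, 8.67 and 8.85 after sleep deprivation, against 9.40, 9.36 and 9.35 in controls. Every sleep-deprived array lay below every control array of any strain, with no overlap. Of all probe sets tested, 0.848% were lower without overlap within each of the 3 strains, and this was the 1 of 20 iron probe sets that was. Averaged over strains the difference was -0.67 ± 0.05 (limma's standard error, 95% confidence interval -0.78 to -0.55), or 1.59-fold lower, with an adjusted p of 2.13e-06. Limma's threshold was an adjusted p under 0.05 over all 45037 tested probe sets, which 1.73% passed in brain. The share called as lower was 1.04%, and 1452661_at was the 1 iron probe set called. By strain the difference was -0.84 ± 0.09 in AKR/J (adjusted p = 0.000194), where limma called 0.3% of all probe sets and 0.107% as lower. It was -0.58 ± 0.09 in C57BL/6J (adjusted p = 0.0265), where 0.0377% were called and 0.0178% as lower. It was -0.58 ± 0.09 in DBA/2J (adjusted p = 0.0132), where 0.104% were called and 0.0333% as lower. The strains were not shown to differ in the size of the fall (adjusted p of the interaction 1.0), a limma test that called 0 probe sets in brain, 1005 of the 45037 having an unadjusted p under 0.05. In whole tissue, fewer cells that carry the transcript and less transcript per cell cannot be told apart.

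The mean fall was called in each of 32 alternative settings, between -0.71 and -0.58. The calls in single strains were less firm. That in C57BL/6J was lost (adjusted p 0.05285 to 0.17) without any 1 of C57BL/6J sleep-deprived arrays 1 and 2, C57BL/6J control arrays 1 to 3, AKR/J control array 3, and DBA/2J control arrays 1 and 2. That in DBA/2J was lost (adjusted p 0.0515 to 0.0845) without any 1 of DBA/2J sleep-deprived arrays 2 and 3 and DBA/2J control arrays 1 to 3. That in AKR/J was lost when the 2 brain controls of conflicting label were left out (adjusted p = 0.0998) and in a fit over all 36 arrays (adjusted p = 0.0625).

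**Figure D1:**
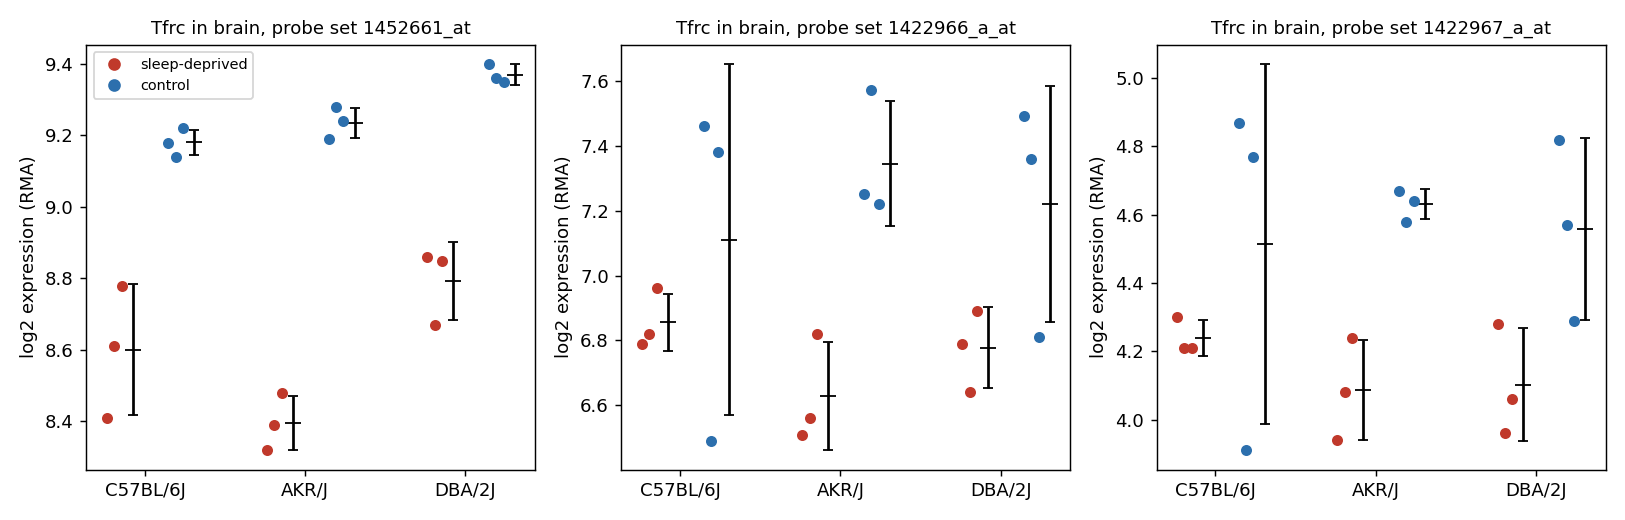
The 3 tested Tfrc probe sets in brain, log2 expression on each vertical axis (not starting at 0) and strain along the horizontal, with 1 point for each array (red sleep-deprived, blue control) and bars for the mean ± SD of 3 arrays. On 1452661_at the sleep-deprived arrays span 8.32 to 8.86, all below the controls at 9.14 to 9.40, while on the other probe sets C57BL/6J control array 2 lies below all C57BL/6J sleep-deprived arrays.

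The other tested Tfrc probe sets had mean differences of the same sign that did not pass. On 1422966_a_at the brain difference was -0.47 ± 0.12 (adjusted p = 0.0649). Its arrays stood at 6.51, 6.56 and 6.82 in sleep-deprived AKR/J mice, against 7.25, 7.57 and 7.22 in AKR/J controls. In C57BL/6J they stood at 6.79, 6.82 and 6.96 after sleep deprivation, against 7.46, 6.49 and 7.38 in controls. The AKR/J groups did not overlap, whereas in C57BL/6J control array 2 lay lowest of the 6. In DBA/2J they stood at 6.79, 6.64 and 6.89 after sleep deprivation, against 7.49, 7.36 and 6.81 in controls, where control array 3 lay within the sleep-deprived range. The 2 low controls are the brain arrays with the raised beta-actin difference. Without all 5 doubted brain arrays the mean difference was -0.64 (adjusted p = 0.000133), without C57BL/6J control array 2 alone -0.58 (adjusted p = 0.00399) and without DBA/2J control array 3 alone -0.54 (adjusted p = 0.0332). The dimmer 1422967_a_at, between 3.91 and 4.87 on the brain arrays, again had C57BL/6J control array 2 below its strain's sleep-deprived arrays, while DBA/2J did not overlap. Its difference was -0.43 ± 0.11 (adjusted p = 0.0633), and -0.58 without the doubted arrays (adjusted p = 0.000146). Without C57BL/6J control array 2 alone it was -0.53 (adjusted p = 0.0013). The part of RNA quality in these differences was not tested beyond these omissions, and on 1452661_at the low controls of the other probe sets stood with their groups, at 9.14 and 9.35. The 3 Tfrc control probe sets, added to the fit after the annotation was seen, changed by -0.27, -0.13 and -0.06 for the 3′, middle and 5′ parts, and none passed (adjusted p 0.429 to 0.866).

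Markers of other cells that carry Tfrc were set beside this fall. Of 10 erythroid markers 5 were measured, and 0 were called by limma in brain (1 at an unadjusted p under 0.05). Their summed level, on the linear scale, was 104 to 269 on sleep-deprived brain arrays and 145 to 348 on control arrays. In AKR/J the groups did not overlap (129 to 134 after sleep deprivation, 157 to 193 in controls). Alas2, 1 of the 5 and also counted among the iron-regulated transcripts below, averaged 5.93 (log2) in sleep-deprived AKR/J brain against 6.64 in controls. Of 8 endothelial markers 0 were called (2 at an unadjusted p under 0.05, 1 each way), with summed levels of 697 to 955 after sleep deprivation and 744 to 838 in controls. Of 10 measured oligodendrocyte markers, the myelin genes Opalin (-0.95) and Aspa (-0.54) fell, while the summed level was 16491 to 19667 after sleep deprivation and 17790 to 20015 in controls. At an unadjusted p under 0.05, 6 of the 10 were lower and 2 higher, and in DBA/2J the sums did not overlap (16491 to 17998 after sleep deprivation, 18068 to 18782 in controls). Of all 45037 probe sets tested, 5459 had an unadjusted p under 0.05 in the mean effect in brain. The summed level of 6 pituitary markers varied widely between brain arrays, at 177 to 7435 after sleep deprivation and 209 to 11919 in controls. In AKR/J it was 1224 to 3560 after sleep deprivation and 209 to 233 in controls, without overlap. The part of these cells in the Tfrc difference was not tested.

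No other iron gene was called in brain in the mean effect. All 3 sleep-deprived arrays lay below all 3 controls for 3 (C57BL/6J), 5 (AKR/J) and 4 (DBA/2J) of the 20 probe sets, against 5.52%, 8.32% and 8.34% of all probe sets. Over the 20 iron probe sets, 13 differences were below 0 and 7 above, with a median of -0.08 against 0.00 (to 2 decimals) over all probe sets. Slc40a1 came nearest. On 1417061_at its arrays stood at 5.0, 5.14 and 5.14 in sleep-deprived C57BL/6J brain against 5.37, 5.34 and 5.49 in controls. In AKR/J they stood at 5.33, 5.21 and 4.72 after sleep deprivation, against 5.87, 5.24 and 5.56 in controls. In DBA/2J they stood at 5.24, 4.52 and 5.05 after sleep deprivation, against 5.39, 5.50 and 5.29 in controls. The groups did not overlap in C57BL/6J and DBA/2J, and overlapped in AKR/J. The mean difference was -0.41 ± 0.11 (95% interval -0.63 to -0.19, adjusted p = 0.0636), and 5 of 32 alternatives called it. Those included leaving out AKR/J control array 2 (adjusted p = 0.036) or DBA/2J sleep-deprived array 1 (adjusted p = 0.0374). The second ferroportin probe set, 1448566_at, had a difference of -0.19 ± 0.09 (adjusted p = 0.387).

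The remaining brain members had wide or small estimates. Aco1, which makes iron regulatory protein 1, had differences of -0.28 ± 0.11 on 1423644_at (95% interval -0.51 to -0.06) and -0.30 ± 0.14 on 1456728_x_at (-0.59 to -0.02), with adjusted p of 0.25 and 0.367. The remaining Aco1 probe set, 1447080_at, had a difference of 0.04 ± 0.06 (adjusted p = 0.86). The lowest values of 1456728_x_at were 5.73 and 5.83, on C57BL/6J sleep-deprived array 1 and DBA/2J sleep-deprived array 2, both of narrow spread. Ireb2, which makes iron regulatory protein 2, had a difference of -0.02 (95% interval -0.19 to 0.16). Fth1 was narrowly held at 13.07 to 13.32 on 1427021_s_at over all 18 brain arrays. Its difference was 0.02 (-0.06 to 0.11) there and -0.05 (-0.15 to 0.05) on 1448771_a_at. On 1427021_s_at the C57BL/6J sleep-deprived arrays, at 13.31 to 13.32, lay above the C57BL/6J controls, at 13.20 to 13.30. The Tfr2 probe sets had differences of -0.10 and -0.12, and the one annotated to both Trf and Srprb 0.02 (-0.09 to 0.13). The 4 probe sets of Slc11a2 did not share a direction, from -0.21 on 1426441_at to 0.15 on 1417584_at. On 1452078_a_at the C57BL/6J sleep-deprived arrays, at 6.31 to 6.44, lay above the C57BL/6J controls, at 5.48 to 6.21. The 5.48 is the doubted control array 2, and the other controls stood at 6.21 and 6.19. For this probe set and Fth1, the share of all probe sets higher without overlap in C57BL/6J brain is not given here. Hamp stood at 3.00 to 4.03 on its 2 probe sets in brain, below the median probe set of that tissue.

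**Figure D2:**
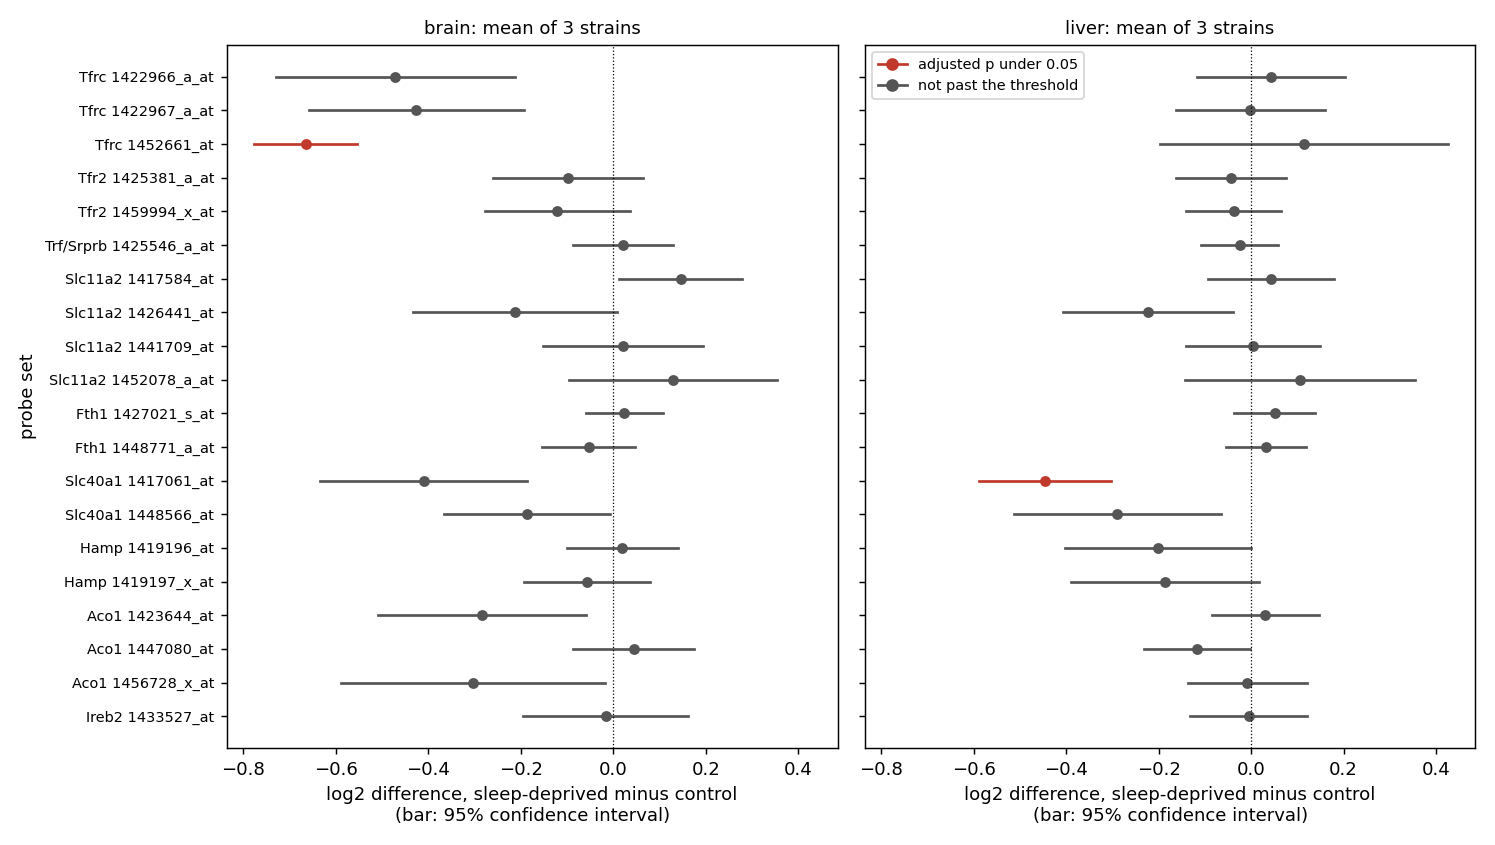
Mean effect of sleep deprivation on the 20 tested iron probe sets in brain (left) and liver (right), as the log2 difference, sleep-deprived minus control, averaged over 3 strains, with bars for the 95% confidence interval. Red marks an adjusted p under 0.05, reached by Tfrc 1452661_at in brain (-0.67) and Slc40a1 1417061_at in liver (-0.45).

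In liver, the gene that fell was Slc40a1, the iron exporter. On its brightest probe set, 1417061_at, the AKR/J arrays stood at 9.99, 9.86 and 10.21 after sleep deprivation, against 10.84, 10.77 and 10.73 in controls. The C57BL/6J arrays stood at 9.88, 9.79 and 9.46 after sleep deprivation, against 10.12, 10.02 and 10.21 in controls. The DBA/2J arrays stood at 10.49, 10.66 and 10.39 after sleep deprivation, against 10.81, 10.74 and 10.52 in controls. The groups did not overlap in AKR/J and C57BL/6J, and overlapped in DBA/2J. The mean difference was -0.45 ± 0.07 (95% interval -0.59 to -0.30), or 1.36-fold lower, with an adjusted p of 0.000674. It was the 1 of 20 iron probe sets called, where limma called 3.6% of all probe sets in liver and 1.21% as lower. Called in 30 of 31 alternatives, it was lost when AKR/J was left out (-0.29, adjusted p = 0.115). By strain it was called in AKR/J (-0.76 ± 0.12, adjusted p = 0.00307), where limma called 0.711% of all probe sets and 0.26% as lower. It was not called in C57BL/6J (-0.41 ± 0.12, adjusted p = 0.181) or DBA/2J (-0.18 ± 0.12, adjusted p = 0.56). In those strains limma called 0.615% and 0.628% of all probe sets and 0 of the 20 iron probe sets. In each, 2 of the 20 had an unadjusted p under 0.05, as had 3590 (C57BL/6J) and 5895 (DBA/2J) of all 45037. The strains were not shown to differ (adjusted p of the interaction 0.586, a test that called 0.0333% of all probe sets in liver). Without the 2 liver controls of conflicting label the AKR/J difference was -0.82 with an adjusted p of 0.108.

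The second ferroportin probe set, 1448566_at, gave a mean difference of -0.29 ± 0.11 that did not pass (adjusted p = 0.169). In AKR/J its arrays stood at 9.24, 9.39 and 9.88 after sleep deprivation, against 10.32, 10.30 and 10.25 in controls. That is a difference of -0.79 ± 0.18 without overlap, with an adjusted p of 0.0572. In DBA/2J the arrays stood at 10.18, 10.17 and 10.05 after sleep deprivation, against 9.53, 10.23 and 10.18 in controls. The low value of 9.53 is DBA/2J control array 1, the liver array with the raised beta-actin difference, and without it the mean difference was -0.36 (adjusted p = 0.0356). Without that array the AKR/J difference on this probe set passed too (adjusted p = 0.0174), as it did without AKR/J sleep-deprived array 3 (adjusted p = 0.0224) or C57BL/6J sleep-deprived array 1 (adjusted p = 0.0413). Kupffer cells, the liver macrophages that recycle iron, carry much ferroportin. Of 7 Kupffer cell markers 0 were called in liver (0 at an unadjusted p under 0.05), and their summed level was 1353 to 3798 after sleep deprivation and 1381 to 4160 in controls. Of 8 endothelial markers Pecam1 (0.42), Flt1 (0.45) and Tek (0.36) rose in liver, with summed levels of 387 to 478 after sleep deprivation and 326 to 464 in controls. In AKR/J, where Slc40a1 was called, these did not overlap, at 410 to 452 after sleep deprivation and 326 to 407 in controls. Of 6 measured hepatocyte markers Tat (0.83) rose. Their sums did not overlap in C57BL/6J, at 101314 to 101983 after sleep deprivation and 94107 to 96942 in controls, or in DBA/2J, at 94033 to 96972 after sleep deprivation and 87640 to 93121 in controls. In AKR/J they overlapped. The part of these cells in the Slc40a1 difference was not tested.

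Hamp, the hepcidin gene, stood at 12.59 to 13.53 on 1419196_at over the 18 liver arrays, and its mean change did not pass. In DBA/2J the arrays stood at 12.67, 12.90 and 13.04 after sleep deprivation, against 13.40, 13.40 and 13.21 in controls. In AKR/J they stood at 13.00, 13.21 and 12.96 after sleep deprivation, against 13.35, 13.30 and 13.40 in controls. In C57BL/6J they stood at 13.03, 13.08 and 13.53 after sleep deprivation, against 13.18, 13.41 and 12.59 in controls. The groups did not overlap in DBA/2J and AKR/J, whereas in C57BL/6J control array 3 was the lowest of all 18 liver arrays and sleep-deprived array 3 the highest. The mean difference was -0.20 ± 0.10 (95% interval -0.40 to 0.00, to 2 decimals, adjusted p = 0.322). The differences of -0.47 (DBA/2J), -0.30 (AKR/J) and 0.16 (C57BL/6J) were not shown to differ (adjusted p of the interaction 0.722). Without C57BL/6J the mean difference was -0.38 (adjusted p = 0.0274). The second probe set, 1419197_x_at, had a difference of -0.19 ± 0.10 (adjusted p = 0.375), and -0.37 without C57BL/6J (adjusted p = 0.0296). On it the groups did not overlap in DBA/2J, but overlapped in C57BL/6J and in AKR/J (12.89 to 13.25 after sleep deprivation, 13.21 to 13.46 in controls).

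**Figure D3:**
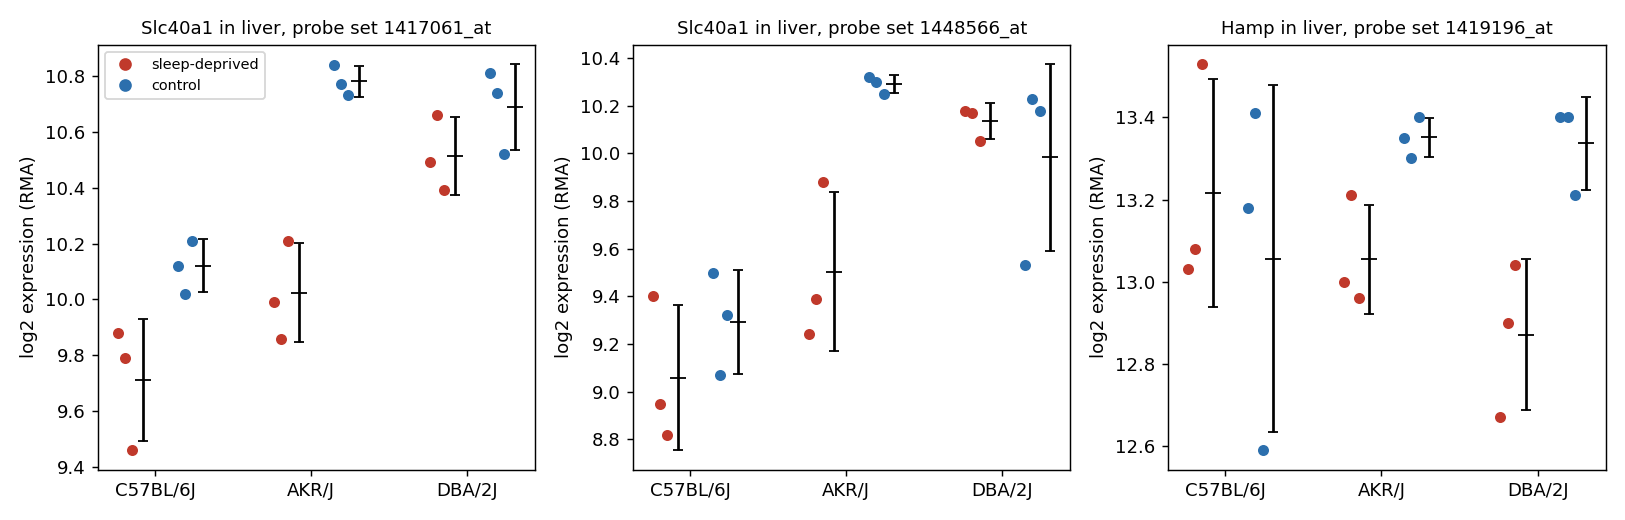
Slc40a1 (2 probe sets) and Hamp (1419196_at) in liver, log2 expression on each vertical axis (not starting at 0) and strain along the horizontal, with 1 point for each array (red sleep-deprived, blue control) and bars for the mean ± SD of 3 arrays. In AKR/J the sleep-deprived arrays lie below the controls in all 3 panels, and the Hamp panel shows the wide C57BL/6J groups, from 12.59 to 13.53.

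The other liver members did not pass. Fth1 stood at 13.39 to 13.56 on 1427021_s_at over all 18 liver arrays, with a difference of 0.05 (95% interval -0.04 to 0.14). In C57BL/6J its sleep-deprived arrays, at 13.49 to 13.52, lay above the controls, at 13.41 to 13.47. The share of all probe sets higher without overlap in C57BL/6J liver is not given here. The probe set annotated to both Trf and Srprb stood at 14.13 to 14.28, with a difference of -0.02 (-0.11 to 0.06). Tfr2, the hepatocyte's transferrin sensor, had differences of -0.04 (-0.14 to 0.07) and -0.04 (-0.16 to 0.08). For these 4 probe sets the intervals therefore exclude a change in measured signal of the size seen for Slc40a1 1417061_at. The highest value of any probe set was 14.91, and whether signals this near it follow the transcript amount was not tested. Ireb2 had a difference of -0.01 (-0.13 to 0.12). The Aco1 differences were 0.03, -0.12 and -0.01. Slc11a2 had -0.22 ± 0.09 on 1426441_at (adjusted p = 0.202), with 5.75, 6.02 and 6.08 in sleep-deprived C57BL/6J against 6.38, 6.3 and 6.4 in controls, which did not overlap. Its other 3 probe sets lay between 0.00 and 0.11. Over the 20 iron probe sets 12 differences were below 0 and 8 above, with a median of -0.01, the same to 2 decimals as over all probe sets. All 3 sleep-deprived arrays lay below all 3 controls for 2 (C57BL/6J), 6 (AKR/J) and 3 (DBA/2J) of the 20, against 7.77%, 7.17% and 8.61% of all probe sets.

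On 1 of its 3 tested probe sets, Tfrc responded differently in the tissues. In liver the probe set 1452661_at had a mean difference of 0.11 ± 0.15 (95% interval -0.20 to 0.43, adjusted p = 0.78), set against the fall of 0.67 in brain. In DBA/2J liver the arrays stood at 7.31, 7.17 and 7.18 after sleep deprivation, against 7.02, 6.99 and 6.75 in controls. In AKR/J liver they stood at 6.59, 7.41 and 7.45 after sleep deprivation, against 6.77, 6.60 and 7.06 in controls. In C57BL/6J liver they stood at 6.79, 8.01 and 6.73 after sleep deprivation, against 7.54, 7.35 and 7.54 in controls. The groups overlapped in C57BL/6J and AKR/J, where the sleep-deprived arrays spread widely, and not in DBA/2J. In DBA/2J liver 2 of the 20 iron probe sets, this one among them, had all sleep-deprived arrays above all controls, against 7.89% of all probe sets. The change in liver exceeded that in brain by 0.78 ± 0.17 (95% interval 0.43 to 1.12, adjusted p = 0.0122). This was the 1 of 20 iron probe sets called where limma called 1.38% of all probe sets. It was called in 45 of 49 alternatives and lost without AKR/J (adjusted p = 0.321), without DBA/2J (adjusted p = 0.247), without the 4 controls of conflicting label (adjusted p = 0.074) and without the doubted arrays (adjusted p = 0.0509). The other Tfrc probe sets did not pass, at 0.51 ± 0.15 on 1422966_a_at (adjusted p = 0.0895) and 0.42 ± 0.14 on 1422967_a_at (adjusted p = 0.143). Both passed without brain C57BL/6J control array 2 (adjusted p = 0.00574 and 0.00889), and 1422966_a_at also without brain DBA/2J control array 3 (adjusted p = 0.0341). The 3 Tfrc control probe sets gave 0.10 to 0.24 (adjusted p 0.472 to 0.751). For Slc40a1 1417061_at the liver minus brain difference was -0.04 ± 0.13 (95% interval -0.30 to 0.23), so the tissues were not shown to differ.

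Strain differences were averaged over both conditions, with 6 arrays a strain. In liver, for Slc40a1, both probe sets were higher in AKR/J and in DBA/2J than in C57BL/6J. On 1417061_at AKR/J averaged 10.40 ± 0.43, DBA/2J 10.60 ± 0.16 and C57BL/6J 9.92 ± 0.27 (SD, n = 6). AKR/J exceeded C57BL/6J by 0.49 (adjusted p = 0.000499) and DBA/2J exceeded it by 0.69 (adjusted p = 1.03e-05), while DBA/2J minus AKR/J was 0.20 (adjusted p = 0.181). On 1448566_at AKR/J averaged 9.90 ± 0.48, DBA/2J 10.06 ± 0.27 and C57BL/6J 9.18 ± 0.27, with differences from C57BL/6J of 0.72 (adjusted p = 0.00081) and 0.88 (adjusted p = 9.31e-05). In sleep-deprived arrays alone AKR/J did not differ significantly from C57BL/6J on either (0.31, adjusted p = 0.143, and 0.44, adjusted p = 0.195). The summed level of the Kupffer cell markers ran in another order, with AKR/J at 1353 to 2138, DBA/2J at 2036 to 4160 and C57BL/6J at 2413 to 2984. The summed level of 5 erythroid markers ran in the order of the Slc40a1 means. It was 910 to 1102 for DBA/2J, 656 to 814 for AKR/J and 558 to 681 for C57BL/6J. DBA/2J thus overlapped neither other strain, while AKR/J overlapped C57BL/6J. Most of this sum came from 1 gene, Alas2, which is also counted among the iron-regulated transcripts below. Its log2 group means were 9.97 (DBA/2J), 9.5 (AKR/J) and 8.84 (C57BL/6J) after sleep deprivation. In controls they were 9.81, 9.36 and 9.09. Averaged over both conditions, the Slc40a1 calls separated both other strains from C57BL/6J and not from each other. In sleep-deprived arrays alone DBA/2J exceeded AKR/J on 1417061_at by 0.49 (limma, adjusted p = 0.0184). In controls its means were 10.69 (DBA/2J) and 10.78 (AKR/J). The part of these cells in the strain difference was not tested. AKR/J minus C57BL/6J called 4 of the 20 iron probe sets, 3 higher and 1 lower, against 12.2% of all probe sets (7.04% higher, 5.19% lower). DBA/2J minus C57BL/6J also called 3 higher and 1 lower, against 12.2% of all (7.13% higher, 5.11% lower). DBA/2J minus AKR/J called 0 by limma, against 8.56% of all. There 2 of the 20 had an unadjusted p under 0.05, as had 8960 of all 45037.

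The other liver calls rested on single probe sets of a gene. On Slc11a2 1426441_at AKR/J averaged 6.66 ± 0.25, DBA/2J 6.65 ± 0.24 and C57BL/6J 6.16 ± 0.25 (SD, n = 6). Both differences from C57BL/6J were 0.50 (adjusted p = 0.00344 each), and neither passed in control arrays alone (0.27, adjusted p = 0.397, for AKR/J and 0.45, adjusted p = 0.1, for DBA/2J). Without the controls of conflicting label the AKR/J difference was 0.33 (adjusted p = 0.0933). None of the other 3 Slc11a2 probe sets was called, and 1417584_at had the opposite sign in DBA/2J minus C57BL/6J (-0.23, adjusted p = 0.0636). That difference passed without DBA/2J sleep-deprived array 3 (adjusted p = 0.0406), DBA/2J control array 1 (adjusted p = 0.0339) or DBA/2J control array 3 (adjusted p = 0.0465). On Aco1 1456728_x_at AKR/J averaged 10.17 ± 0.14, DBA/2J 10.21 ± 0.08 and C57BL/6J 10.55 ± 0.13 (SD, n = 6). The differences were -0.38 (adjusted p = 0.00182) for AKR/J and -0.35 (adjusted p = 0.00365) for DBA/2J, whereas Aco1 1423644_at and 1447080_at did not pass. The AKR/J call was lost in control arrays alone (adjusted p = 0.102) and in the fit over 36 arrays (adjusted p = 0.0588). The DBA/2J call was lost in sleep-deprived arrays alone (adjusted p = 0.1005) and in the fit over 36 arrays (adjusted p = 0.0909). Whether sequence differences between the strains under the probes have a part in this was not tested.

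**Figure D4:**
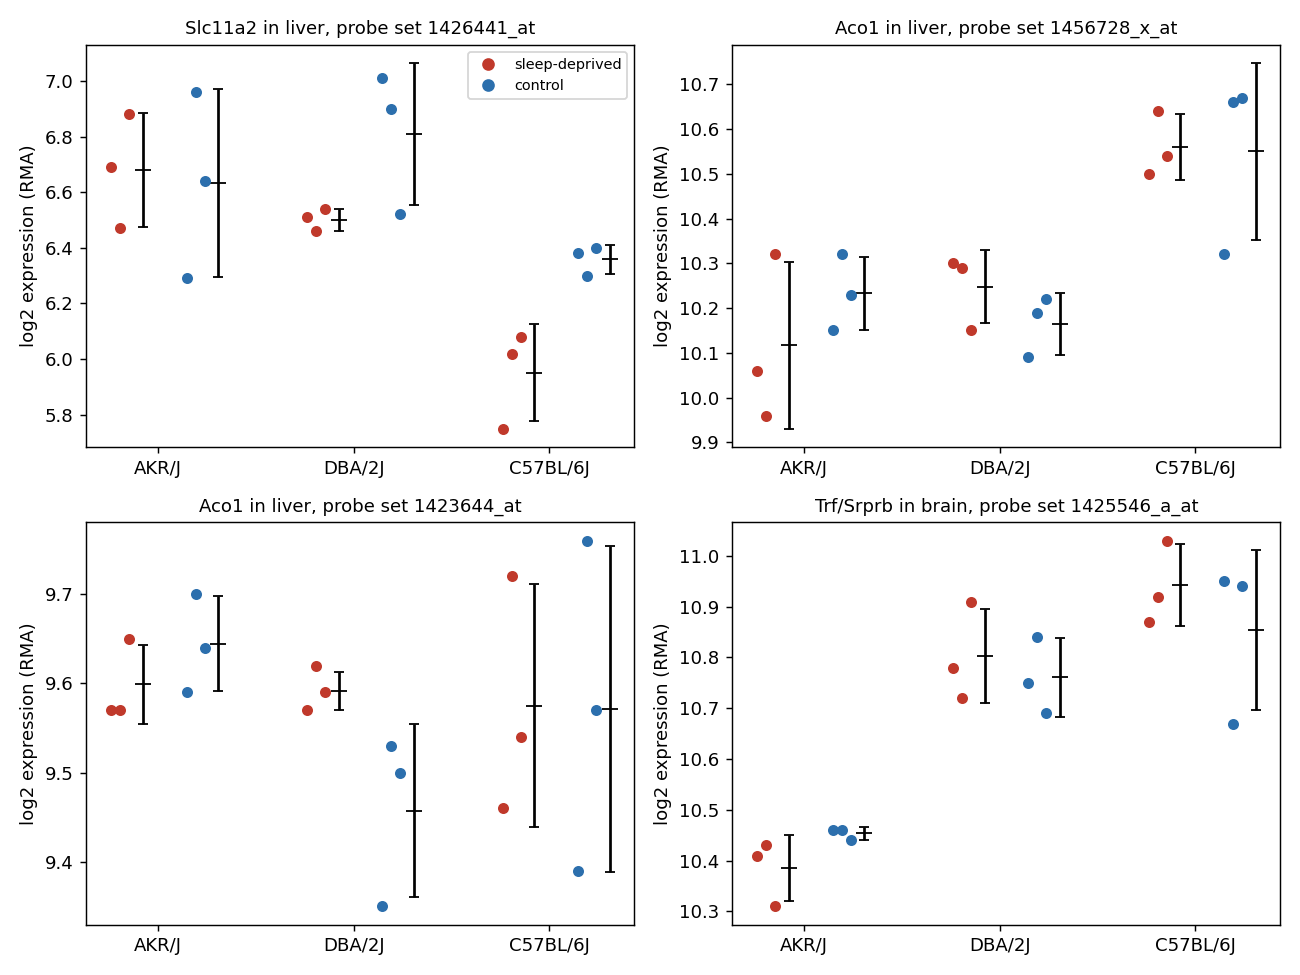
Strain levels of Slc11a2 and of 2 Aco1 probe sets in liver and of the probe set annotated to both Trf and Srprb in brain, log2 expression on each vertical axis (not starting at 0), with 1 point for each array (red sleep-deprived, blue control) and bars for the mean ± SD of 3 arrays. Aco1 1456728_x_at averages higher in C57BL/6J (arrays 10.32 to 10.67) than in the other strains (arrays 9.96 to 10.32), a difference that Aco1 1423644_at does not show.

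In brain, a strain difference was called for the probe set annotated to both Trf and Srprb. AKR/J averaged 10.42 ± 0.06, DBA/2J 10.78 ± 0.08 and C57BL/6J 10.90 ± 0.12 (SD, n = 6). AKR/J, at 10.31 to 10.46, did not overlap DBA/2J at 10.69 to 10.91 or C57BL/6J at 10.67 to 11.03. AKR/J minus C57BL/6J was -0.48 (adjusted p = 9.16e-05, called in 31 of 31 alternatives) and DBA/2J minus AKR/J was 0.36 (adjusted p = 0.00166), while DBA/2J minus C57BL/6J was -0.12 (adjusted p = 0.521). The DBA/2J minus AKR/J call was lost in control arrays alone (0.31, adjusted p = 0.125). Oligodendrocytes and astrocytes were set beside it, and their part in the difference was not tested. The oligodendrocyte marker sums had medians of 17850 (AKR/J), 18033 (DBA/2J) and 19651 (C57BL/6J), the order of this probe set. Unlike it, their ranges overlapped between all strains, at 17270 to 18429 (AKR/J), 16491 to 18782 (DBA/2J) and 17431 to 20015 (C57BL/6J). The astrocyte marker sums were 4968 to 5976 with AKR/J arrays, 5894 to 6775 with DBA/2J and 6067 to 6672 with C57BL/6J, so that AKR/J did not overlap C57BL/6J. The arrays do not tell which of the 2 genes differs. The first comparison called this 1 of the 20 iron probe sets against 4.56% of all, the second called 2 against 3.29%, and the third called 0 against 4.18%. In the third, 4 of the 20 had an unadjusted p under 0.05, as had 5543 of all 45037. The other call in DBA/2J minus AKR/J was Tfrc 1452661_at, at 0.27 (adjusted p = 0.0259), which was 0.13 in control arrays alone (adjusted p = 0.924). That Tfrc call was also lost (adjusted p 0.05279 to 0.0803) without any 1 of AKR/J sleep-deprived arrays 1 and 2, AKR/J control arrays 1 and 3, DBA/2J sleep-deprived arrays 1 and 3, and DBA/2J control arrays 1 to 3.

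Beyond the 9 genes, 67 further genes of iron handling were measured in each tissue, each by its brightest probe set. In brain limma called 0 as higher and 1 as lower (0 and 6 at an unadjusted p under 0.05), where 0.951% of all genes rose and 1.6% fell, 2.55% in all. By probe set, 5459 of all 45037 had an unadjusted p under 0.05 there, in either direction. The faller was Alad, an enzyme of haem synthesis, at -0.23 ± 0.05 (adjusted p = 0.0285), with group means of 7.07, 8.49 and 8.53 in sleep-deprived C57BL/6J, AKR/J and DBA/2J against 7.17, 8.86 and 8.76 in their controls. Its 1 other probe set did not pass. It was called in 17 of 32 alternatives, and was lost (adjusted p 0.0508 to 0.0714) without any 1 of AKR/J sleep-deprived array 3, C57BL/6J sleep-deprived array 2, DBA/2J sleep-deprived array 1, AKR/J control array 1, C57BL/6J control array 1 and DBA/2J control arrays 1 to 3. In liver 5 rose and 0 fell (8 and 12 at an unadjusted p under 0.05), where 2.97% of all genes rose and 1.91% fell, 4.88% in all. The matching count by probe set was 6992 of all 45037, in either direction. By list, the lists of ferritin and iron chaperones (6 measured) and of haem and iron-sulphur cluster genes (18 measured in each tissue) had 0 called in liver by the brightest probe sets (limma). Pcbp2, an iron chaperone of the first list, had 1 of its 2 other probe sets called in each tissue, the one such gene among the 67. The list of other transport and redox genes had 3 of 22 called, hepcidin control had 1 of 17, and iron-regulated transcripts had 1 of 4. The medians of these 5 lists in liver ran from -0.06 to 0.04, against -0.02 over all genes.

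Of the liver genes that rose, 3 take up iron or haem proteins. Scara5, a receptor for ferritin, had group means of 8.34, 8.06 and 8.66 in sleep-deprived C57BL/6J, AKR/J and DBA/2J, against 6.96, 7.40 and 8.15 in their controls. Its difference was 0.85 ± 0.17 (adjusted p = 0.00656). Cd163, the macrophage receptor for haptoglobin-bound haemoglobin, rose by 0.58 ± 0.13 (adjusted p = 0.0159). Slc39a14 (ZIP14), which carries iron that is not bound to transferrin into hepatocytes, rose by 0.40 ± 0.08 (adjusted p = 0.00746) on its brightest probe set, while its other 3 did not pass. Scara5, Epas1 and Hamp2 each had 1 other probe set, which did not pass. Epas1, the hypoxia-inducible factor 2-alpha whose transcript carries an iron-responsive element, rose by 0.37 ± 0.07 (adjusted p = 0.00456). Hamp2, the second hepcidin gene of mice, rose by 0.44 ± 0.12 with an adjusted p of 0.04995, and 7 of 31 alternatives called it. Among single arrays left out, it stayed called only without AKR/J sleep-deprived array 3, C57BL/6J sleep-deprived array 2, AKR/J control array 3 or C57BL/6J control array 2. The sequences of Hamp and Hamp2 are close, and how far their probe sets share signal was not tested. Each of these 5 calls was lost without at least 1 of the strains. Without C57BL/6J those of Scara5 (adjusted p = 0.134), Cd163 (adjusted p = 0.203) and Slc39a14 (adjusted p = 0.128) were lost. Without AKR/J those of Cd163 (adjusted p = 0.0756) and Slc39a14 (adjusted p = 0.118) were lost, as they were without the controls of conflicting label (adjusted p = 0.0629 and 0.0525). Without DBA/2J that of Epas1 was lost (adjusted p = 0.0506), and Hamp2 was lost without any 1 of the strains (adjusted p 0.0661 to 0.236). On the same liver arrays 3 of 8 endothelial markers, Pecam1 (0.42), Flt1 (0.45) and Tek (0.36), rose. So did 1 of 6 measured hepatocyte markers, Tat (0.83). The median change was 0.14 over the endothelial and 0.04 over the hepatocyte markers. The part of these cells in the rises was not tested.

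Strain differences of the 67 genes were counted in both tissues. In brain AKR/J minus C57BL/6J called 4 higher and 3 lower, DBA/2J minus C57BL/6J 2 higher and 3 lower, and DBA/2J minus AKR/J 0 higher and 4 lower. The shares of all genes called there were 5.11%, 4.45% and 3.38%. In liver AKR/J minus C57BL/6J called 8 higher and 9 lower, DBA/2J minus C57BL/6J 12 higher and 4 lower, and DBA/2J minus AKR/J 9 higher and 6 lower. The shares of all genes called in these comparisons were 16.5%, 16.4% and 11.3%.

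The genes most like Tfrc in brain were found by the root-mean-square difference of log2 values, each centred on its own mean over the 18 arrays. By this measure they were Hnrnpdl (0.152), Zfp28 (0.172), Wdr6 (0.181), Tipin (0.188) and Rcor3 (0.192), where Tfrc's own root-mean-square deviation was 0.365. Each of these 5 was lower after sleep deprivation, by -0.41 to -0.60, as a likeness to Tfrc entails. For Hamp in liver, whose own deviation was 0.255, the nearest were Aspg (0.162), Ripor2 (0.171), Meis2 (0.173), Ahnak (0.177) and Samd4 (0.181). None of these liver genes passed in the mean effect. Ripor2, Meis2 and Ahnak were dim, with log2 group means of 3.29 to 3.69, below the liver's median probe set at 4.10.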

How the data were processed

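RNA of whole brain and liver was measured on 36 arrays, with RNA of 3 mice pooled equally on each, per the labels' protocols. The authors deposited log2 expression values, and the submitters' processing notes name RMA without a version. RMA gives arrays processed together a common distribution, which hides a change shared by most genes, and compresses changes of dim probe sets. Probe sets were named by the platform annotation, updated through GRCm38.p6 gene identifiers (34741 of 34945 single-symbol probe sets matched). The 64 control probe sets were left out.

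Limma 3.58.1 (R 4.3.3) fitted brain and liver separately, with 6 group means each, and liver minus brain from 12 group means. Tests were two-sided, with Benjamini-Hochberg adjustment over 45037 probe sets and a threshold of 0.05. A value after ± is limma's standard error unless named SD. The fits were tested on simulated data. A gene's brightest probe set by mean over the tissue's 18 arrays represents it. All members were described, and from the other lists each called gene up to 4 a list and tissue. The members and lists were chosen with earlier results of these data known. Alternatives changed filters, scaling, variance models and arrays.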

Additional observations from a re-analysis of the deposited data

Results flagged for a closer look

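Tfrc, the transferrin receptor gene, stood out because its response to sleep loss differed between the tissues on 1 of its 3 tested probe sets. On 1452661_at the liver change minus the brain change was 0.78 ± 0.17 on the log2 scale (limma, adjusted p = 0.0122). The other probe sets did not pass (adjusted p = 0.0895 and 0.143). The call on 1452661_at was lost without AKR/J (adjusted p = 0.321), without DBA/2J (adjusted p = 0.247), without the controls of conflicting label (adjusted p = 0.074) and without the doubted arrays (adjusted p = 0.0509). In DBA/2J the differences had opposite signs in the tissues, without overlap between the groups. The sleep-deprived minus control difference there was 0.30 in liver and -0.58 in brain, of which limma called the brain difference alone, and the difference between the tissues within DBA/2J was not tested.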

How the results depend on the processing

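No called value reversed under any alternative, and the Tfrc fall in brain and the Slc40a1 strain difference between DBA/2J and C57BL/6J in liver were called in all of theirs. The counts of called iron probe sets moved as follows, and the cause was not tested. The share of all probe sets called in each setting is not given here. Whether a count moved with that share therefore cannot be told from these counts. For the mean effect in brain (1), they were 3 without dim probe sets, 5 with array weights, 4 in the fit over 36 arrays, 3 without the doubted arrays, 3 without C57BL/6J and 1 to 3 with single arrays left out. In C57BL/6J brain (1), array weights gave 2, and 0 were called with arrays centred on their median, in the fit over 36 arrays, without the controls of conflicting label, without the doubted arrays and with the strain's own 6 arrays, and 0 to 1 with single arrays left out. In AKR/J brain (1), array weights and omission of the doubted arrays gave 3 each, the fit over 36 arrays and omission of the conflicting controls 0 each, and single arrays left out 1. In DBA/2J brain (1), the fit over 36 arrays and the strain's own 6 arrays gave 0, and single arrays left out 0 to 1. For AKR/J minus C57BL/6J in brain (1), array weights gave 2. For DBA/2J minus C57BL/6J in brain (0), trended and robust variances gave 2, array weights 5, the fit over 36 arrays, omission of the 3 narrow arrays and omission of the doubted arrays 1 each, and single arrays left out 0 to 1. For DBA/2J minus AKR/J in brain (2), median centring, the fit over 36 arrays and omission of the conflicting controls gave 1 each, control arrays alone 0, and single arrays left out 1 to 2. For the mean effect in liver (1), omission of the doubted arrays gave 2, of C57BL/6J 3, of AKR/J 0, of DBA/2J 2, and of single arrays 1 to 2. In AKR/J liver (1), a filter on dim probe sets, quantile normalisation, array weights, the fit over 36 arrays and omission of the doubted arrays gave 2 each, omission of the conflicting controls 0, and of single arrays 1 to 2. For AKR/J minus C57BL/6J in liver (4), sleep-deprived arrays alone and control arrays alone gave 2 each, the fit over 36 arrays and omission of the conflicting controls 3 each, and single arrays left out 4 to 5. For DBA/2J minus C57BL/6J in liver (4), the fit over 36 arrays, sleep-deprived arrays alone and control arrays alone gave 3 each, a filter on dim probe sets, array weights and omission of the doubted arrays 5 each, and single arrays left out 4 to 5. For DBA/2J minus AKR/J in liver (0), sleep-deprived arrays alone gave 1. For liver minus brain (1), array weights gave 3, omission of the conflicting controls 0, of the doubted arrays 2, of C57BL/6J 2, of AKR/J 0, of DBA/2J 0, and of single arrays 1 to 3. Within a tissue, the replicate numbers were not shown to pair the samples. Same-numbered arrays correlated in their deviations by a median of 0.105 in brain and -0.004 in liver, against 0.08 and -0.009 for arrays of different number. On average 9 (brain) and 7 (liver) of 18 arrays were most like the arrays of their own number. Whether brain and liver pools came from the same mice was not tested, and liver minus brain treats the 36 arrays as independent. With the replicate number as a block the count in C57BL/6J brain was 0, Tfrc 1452661_at there having an adjusted p of 0.0552, and Alad (adjusted p = 0.0548) and Hamp2 (adjusted p = 0.0599) were lost. The block changed no other call. Signal limits the dim members, since 13 of 20 iron probe sets in brain and 17 in liver lay above the tissue's median probe set.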
